A study of Mus musculus with 4 samples.

Results

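The listed genes were Ttr, Aqp1, Folr1, Kl, Enpp2 and Msx1, which are used to recognise the choroid plexus, and Foxj1 and Ccdc153, which are used to recognise ciliated ependyma. They are 8 of the 21951 protein-coding genes in the annotation and were taken by name. Each was scored for peaks of histone H3 trimethylated at lysine 4 (H3K4me3) within 1 kb of any of its annotated transcription start sites. The tissue was bulk, and its label reads layer of hippocampus. The study profiled adult male B6CASTF1/J mice of 2 months, first-generation hybrids of a laboratory and a wild-derived strain, by chromatin immunoprecipitation and sequencing with an antibody to H3K4me3. Per the labels, pool D and pool C each combined 7 layer of hippocampus samples. Each pool had 2 technical replicate libraries, and no pool was treated or mutant. The deposited peak lists comprise 1 for each pool, 1 called on the combined pools and 1 of replicated peaks, which is the main list here.

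The choroid plexus is a folded epithelium in the brain ventricles that secretes cerebrospinal fluid and carries hormones and vitamins into it. Ependymal cells line the ventricle walls and move the fluid with motile cilia, and the hippocampus borders a lateral ventricle. Both are minor cell types of a hippocampal dissection. H3K4me3 gathers at the start sites of active and poised genes, chiefly at promoters rich in CpG dinucleotides, and does not by itself tell the active from the poised. Enpp2 is also expressed by oligodendrocytes and Kl by hippocampal neurons, so a mark at these genes names no cell type.

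Kl, Enpp2, Msx1 and Foxj1 carried a promoter peak in every list, and Ttr, Aqp1, Folr1 and Ccdc153 carried none in any. The count was thus 4 of 8 in the replicated list, where 65.5% of all protein-coding genes had a promoter peak. The other lists gave 4 of 8 as well, against 64.2% of all genes for pool D, 66.9% for pool C and 66.3% for the pools called together. With 8 genes, a share of this size is near the share of all genes, and no test was made. No listed gene changed status between the pools. Over all protein-coding genes, 588 were marked in pool C only and 5 in pool D only (together 2.70%). With so small a share, an unchanged status of 8 genes is not particular to them. In bulk tissue, fewer cells with the mark and less of the mark per cell cannot be told apart, and a list of peaks does not show signal that its caller left out.

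**Figure D1:**
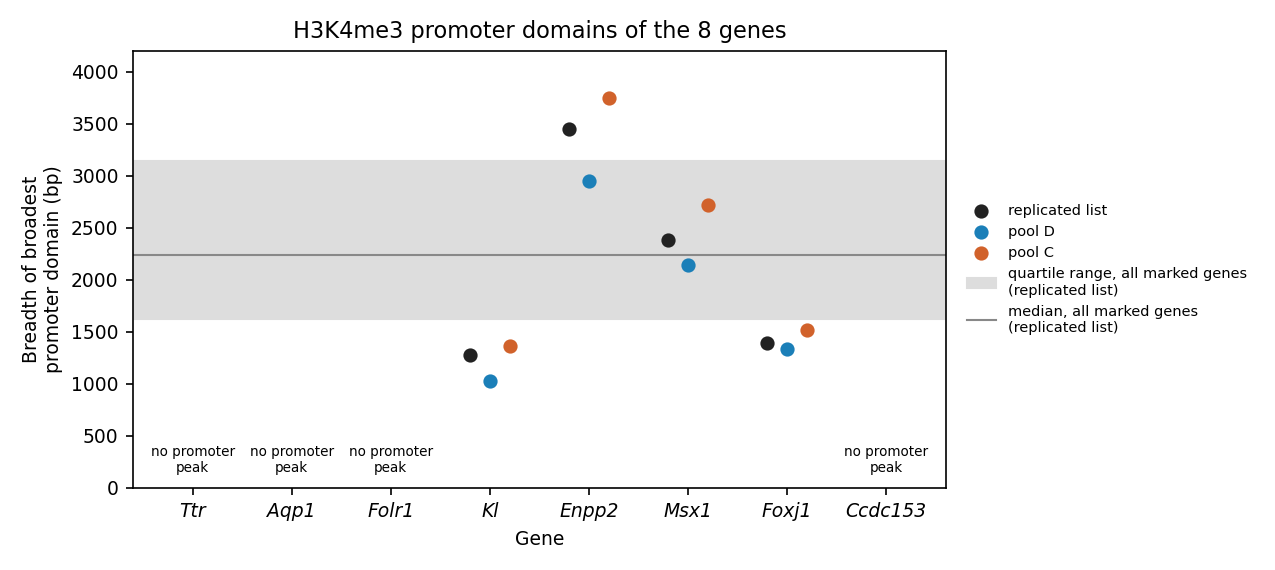
Breadth in bp of the broadest promoter domain of each of the 8 genes in the replicated list (black), pool D (blue) and pool C (orange), with the median and quartile range of all marked genes in the replicated list in grey. Enpp2 and Msx1 lie above the grey median of 2234 bp in the replicated list, Kl and Foxj1 below the lower quartile of 1626 bp, and the other 4 genes have no promoter peak.

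Kl encodes klotho, a membrane protein that serves as co-receptor for the hormone FGF23 and is also shed into the cerebrospinal fluid. The gene (ENSMUSG00000058488.7; chromosome 5, 150952607 to 150993817, plus strand, build mm10) had 2 annotated start sites, both inside 1 domain. A promoter domain is a run of peaks with gaps of at most 1 kb, and its breadth is its length. The Kl domain measured 1029 bp in pool D, 1359 bp in pool C (1194 ± 233 bp, SD, n = 2 pools) and 1278 bp in the replicated list (150952294 to 150953571). By the broadest domain of each gene, Kl was the narrowest of the marked members in all 3 lists, at percentile 13.7 of breadth among marked genes of the replicated list. Its peak had a signal value of 8.03 in the unit of the authors' caller, whose scale is not stated. It stood at percentile 8.55 among the strongest promoter peaks of marked genes. Of the 1278 bp, 73.2% was exon, 825 bp of it coding, and 313 bp lay upstream of the gene.

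Enpp2 encodes autotaxin, a secreted enzyme that makes lysophosphatidic acid, and it carried 2 separate promoter domains. The gene (ENSMUSG00000022425.16; chromosome 15, 54838901 to 54952892, minus strand) has 8 annotated start sites. Of these, 4 lay together inside the broader domain, which measured 2951 bp in pool D, 3746 bp in pool C (3348.5 ± 562 bp, SD, n = 2 pools) and 3445 bp in the replicated list (54918072 to 54921516). This was the broadest domain of the 8 genes in each list and stood at percentile 79.9 of the replicated list. It lay wholly inside the gene as annotated, with 3148 bp in introns and 297 bp in exons. The summit, the point of highest signal, lay 171 to 172 bp downstream of the first of those 4 start sites in both pools. That first site, 54920125, belongs to a retained-intron transcript. The summit, 54919953 in pool D and 54919954 in pool C, lay close to 54919961, the start site of 2 protein-coding transcripts.

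The narrower Enpp2 domain lay at the outermost start site, 54952892, and measured 1033 bp in pool D, 1243 bp in pool C and 1201 bp in the replicated list (54951891 to 54953091). It also held the start site of Gm26684, annotated as a noncoding RNA from a bidirectional promoter, so the mark there cannot be assigned to Enpp2 alone. The narrower domain had the higher signal value within the pool D list (15.2 against 12.6) and within the pool C list (24.6 against 17.7). In the replicated list the order was the other way (13.6 against 14.9). The remaining 3 start sites had no peak on them, and the nearest of these lay 1097 bp from the broader domain in the replicated and pool C lists and 1123 bp in pool D.

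Msx1 encodes a homeobox transcription factor that acts downstream of bone morphogenetic protein (BMP) signals in the developing dorsal midline and plexus. The gene (ENSMUSG00000048450.10; chromosome 5, 37820485 to 37824583, minus strand) has 2 start sites 1 base apart. Its domain measured 2146 bp in pool D, 2719 bp in pool C (2432.5 ± 405 bp, SD, n = 2 pools) and 2378 bp in the replicated list (37822570 to 37824947). This is close to the median of all marked genes in each list (2034, 2400 and 2234 bp). In the replicated list the domain ran 364 bp upstream and 2013 bp downstream of the start site, and 79.1% of it was annotated exon, retained-intron transcripts included. Its breadth thus stood mid-way among marked genes (percentile 55.1) while its signal value of 8.97 was low (percentile 9.99). In pool D the domain was made of 2 peaks, the inner one of 337 bp, and in pool C of 1.

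Foxj1 encodes the forkhead transcription factor that switches on the genes of motile cilia. Its peak had the highest signal value of the marked members in the replicated list (18.0, against 14.9 for Enpp2), but not in pool D (13.2 against 15.2) or pool C (23.8 against 24.6). The gene (ENSMUSG00000034227.7; chromosome 11, 116330704 to 116335399, minus strand) has 1 start site. Its domain measured 1335 bp in pool D, 1516 bp in pool C (1425.5 ± 128 bp, SD, n = 2 pools) and 1393 bp in the replicated list (116334991 to 116336383). The breadth was at percentile 17.1 and the signal value of 18.0 at percentile 30.3, both below the median of marked genes. Unlike the other domains, it lay mostly upstream of the start site, with 984 bp before it and 408 bp after it, and its outer end reached the 3′ end of the neighbouring Rnf157. The summit was 314 bp (D) and 326 bp (C) upstream. A further peak (D 495 bp, C 546 bp) lay about 15.7 kb from the start site, beyond the 3′ end of the gene. The nearest annotated start site to it was 7014 bp away in pool C and 7036 bp in pool D. A nearer peak lay upstream, 6.77 kb from the Foxj1 start site in pool C (604 bp) and 6.90 kb in the list on both pools together (374 bp). The pool D and replicated lists lacked it.

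**Figure D2:**
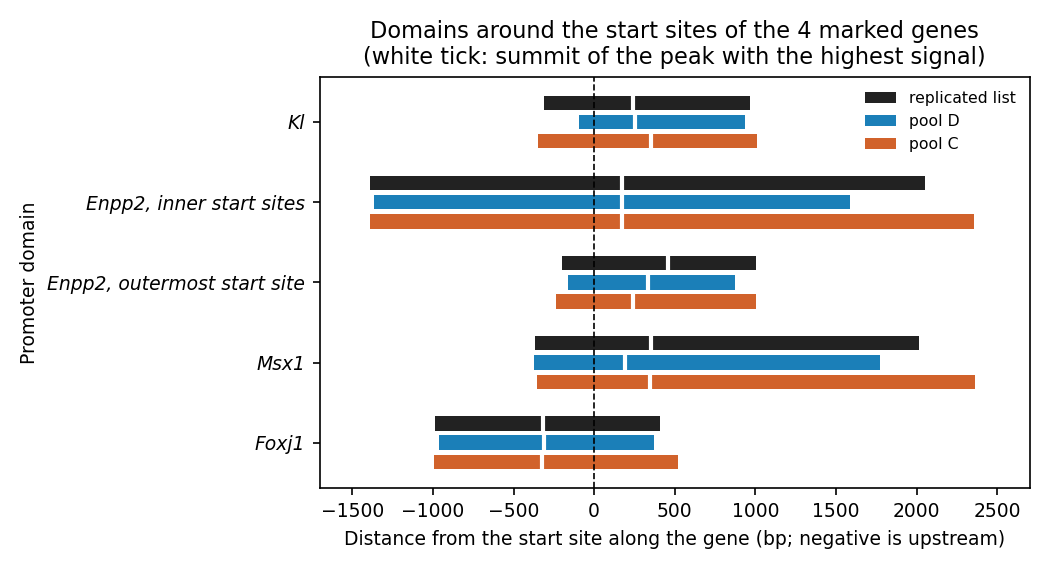
Extent of each promoter domain along the gene, in bp from the start site with upstream to the left, for the replicated list (black), pool D (blue) and pool C (orange); the white tick is the summit of the peak with the highest signal. Zero is the first start site of the gene inside the domain. The Foxj1 domain reaches 984 bp upstream and 408 bp downstream in the replicated list, and the Msx1 domain 364 bp and 2013 bp.

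Ccdc153 encodes a coiled-coil protein used as a marker of ciliated ependyma. The gene (ENSMUSG00000070306.3; chromosome 9, 44240676 to 44247306, plus strand) has 8 start sites, and no peak lay at any of them. Among the unmarked members it was the nearest to a peak, at 5.65 kb in pool D, 5.54 kb in pool C and 5.62 kb in the replicated list, always on the upstream side. That peak, 899 bp in the replicated list, lay 106 bp from a start site of Cbl, a ubiquitin ligase gene, next to the Cbl promoter peak of 1900 bp.

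Promoter sequences came from a table of RefSeq promoters (build GRCm38.p6, 250 bases before to 50 after the start) that does not cover every gene, and Kl, Msx1, Aqp1 and Ccdc153 were matched in it. They are shown because the marked and unmarked members differ in CpG content, and CpG dinucleotides are in capitals. The Kl sequence is chr5:150952357-150952656 on the plus strand and the Msx1 sequence chr5:37824536-37824835 on the minus strand. The Aqp1 sequence is chr6:55336049-55336348 and the Ccdc153 sequence chr9:44240427-44240726, both on the plus strand.
Kl: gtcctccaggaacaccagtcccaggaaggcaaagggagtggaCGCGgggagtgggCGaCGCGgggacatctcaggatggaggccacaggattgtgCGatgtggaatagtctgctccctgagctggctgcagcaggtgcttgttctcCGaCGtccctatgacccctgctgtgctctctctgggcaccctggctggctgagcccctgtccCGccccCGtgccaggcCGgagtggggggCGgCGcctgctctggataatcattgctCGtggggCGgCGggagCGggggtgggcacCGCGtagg
Msx1: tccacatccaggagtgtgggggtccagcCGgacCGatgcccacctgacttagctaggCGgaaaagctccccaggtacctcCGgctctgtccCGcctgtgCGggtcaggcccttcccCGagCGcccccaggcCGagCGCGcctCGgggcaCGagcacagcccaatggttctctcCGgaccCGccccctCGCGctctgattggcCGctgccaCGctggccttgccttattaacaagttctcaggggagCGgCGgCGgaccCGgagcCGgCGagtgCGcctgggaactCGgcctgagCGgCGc
Aqp1: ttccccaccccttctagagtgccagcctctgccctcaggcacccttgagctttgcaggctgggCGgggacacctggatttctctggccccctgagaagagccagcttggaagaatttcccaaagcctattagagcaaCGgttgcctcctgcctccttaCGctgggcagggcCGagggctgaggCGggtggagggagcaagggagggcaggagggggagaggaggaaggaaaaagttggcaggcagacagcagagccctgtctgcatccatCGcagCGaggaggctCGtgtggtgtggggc
Ccdc153: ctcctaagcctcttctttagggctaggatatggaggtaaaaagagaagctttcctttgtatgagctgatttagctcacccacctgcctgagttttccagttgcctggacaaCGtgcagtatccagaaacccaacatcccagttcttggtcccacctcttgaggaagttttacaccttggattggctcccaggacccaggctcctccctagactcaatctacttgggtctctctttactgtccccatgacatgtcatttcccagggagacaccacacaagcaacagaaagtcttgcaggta
The Msx1 sequence holds 29 CpG and the Kl sequence 19, and the Aqp1 sequence holds 8 and the Ccdc153 sequence 1. Over the 32851 promoters of that table the median was 7, with quartiles at 3 and 20. All 300 bases of the Kl and Msx1 sequences lay inside the replicated and pool C domains, as did all 300 of Msx1 and 145 of Kl in pool D, and none of the Aqp1 and Ccdc153 sequences lay in a peak. The RefSeq start of Aqp1 lies 133 bp from the GENCODE start, and those of the other genes lie at most 2 bp apart.

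Motifs were searched on both strands of these promoters as exact letters. GGGCGG, the GC box, was found 3 times in Kl and 1 time each in Msx1 and Aqp1, and 35.7% of the promoters of the table hold it. CCAAT, a common promoter box, was found 2 times in Msx1 and 1 time in Ccdc153 (37.4% of the table). GTTGCC, a part of the X-box that RFX factors of ciliary genes bind, was found 152 bases upstream of the start in Ccdc153 and 111 bases upstream in Aqp1 (12.5% of the table). TATAAA (13.6% of the table), GTAAACA (forkhead; 3.65%), TAATCC (OTX2; 7.06%), TAATTG (MSX; 8.0%) and CACGTG (E-box; 7.15%) were in none of these windows. The motifs do not overlap each other in these hits, and a match is a description of letters only.

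The CpG contrast held over all the members, counted within 500 bp of each 5′ end. The marked genes had 79 CpG (Kl), 68 (Foxj1), 66 (Msx1) and 43 (Enpp2), and the unmarked ones 28 (Aqp1), 12 (Ttr), 8 (Ccdc153) and 7 (Folr1), so that the groups did not overlap. The median over all marked genes was 60 and over all unmarked genes 9. With all genes ranked into deciles by CpG count, 97.9% of the decile with Foxj1 and Msx1 carried the mark, 98.8% of the decile with Kl and 94.3% of the decile with Enpp2. For Ttr the share was 27.2%, and for Folr1 and Ccdc153 13.2%. Aqp1 differed from the other unmarked members, since 79.4% of the genes in its decile (26 to 41 CpG) carried a promoter peak. Its count of 28 lay near the lower edge, and in the decile below (15 to 26 CpG) the share was 44.2%. The Enpp2 count is for the outermost start site, which carries the narrower domain.

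**Figure D3:**
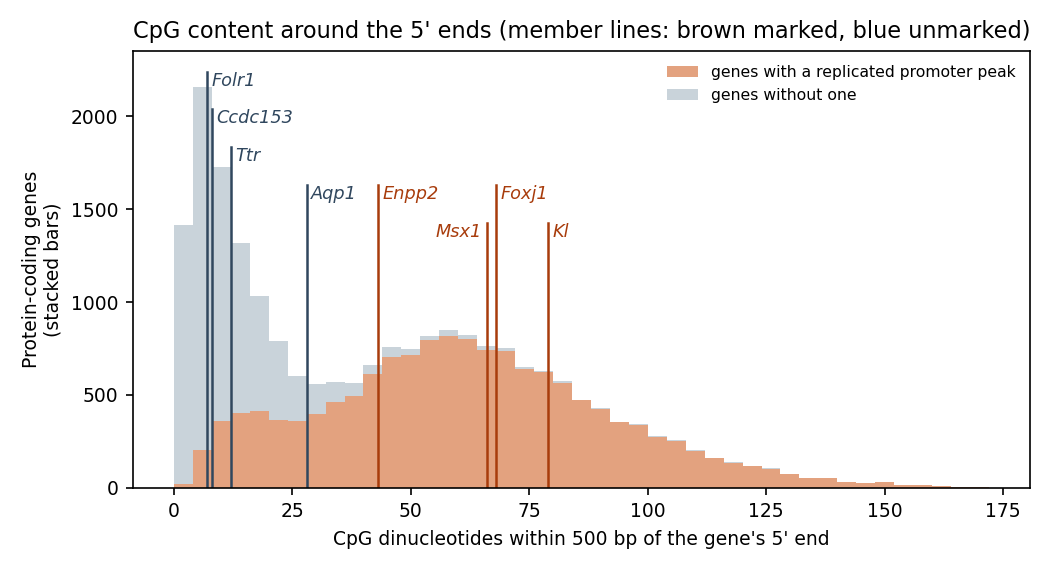
Number of protein-coding genes by CpG dinucleotides within 500 bp of the 5′ end, as stacked bars for genes with (orange) and without (grey) a replicated promoter peak; vertical lines mark the 8 members, brown where marked and blue where not, and their heights carry no value. The 4 marked members have 43 to 79 CpG and the 4 unmarked ones 7 to 28.

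Of the listed choroid plexus genes, Kl, Enpp2 and Msx1 were marked, and Ttr, Aqp1 and Folr1 were far from any peak. Ttr encodes transthyretin, the thyroxine carrier that the plexus secretes into the fluid (ENSMUSG00000061808.4; chromosome 18, 20665280 to 20674321, plus strand), and it has 1 start site. The nearest peak to it was 76.0 kb away in pool D and 55.2 kb away in pool C and in the replicated list, where it was 332 bp wide with a −log10 q of 1.38. Aqp1 encodes aquaporin 1, the water channel of the plexus (ENSMUSG00000004655.5; chromosome 6, 55336432 to 55348555, plus strand), also with 1 start site. Its nearest peak was at 115 kb in pool D, at the promoter of Adcyap1r1, at 60.0 kb in pool C and at 60.1 kb in the replicated list, both at 6430584L05Rik. Folr1 encodes folate receptor alpha, which carries folate across the plexus (ENSMUSG00000001827.12; chromosome 7, 101858331 to 101870788, minus strand). None of its 15 start sites had a peak, and the nearest lay 24.99 kb away in pool D and 24.8 kb away in pool C and the replicated list, at a start site of Anapc15.

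**Figure D4:**
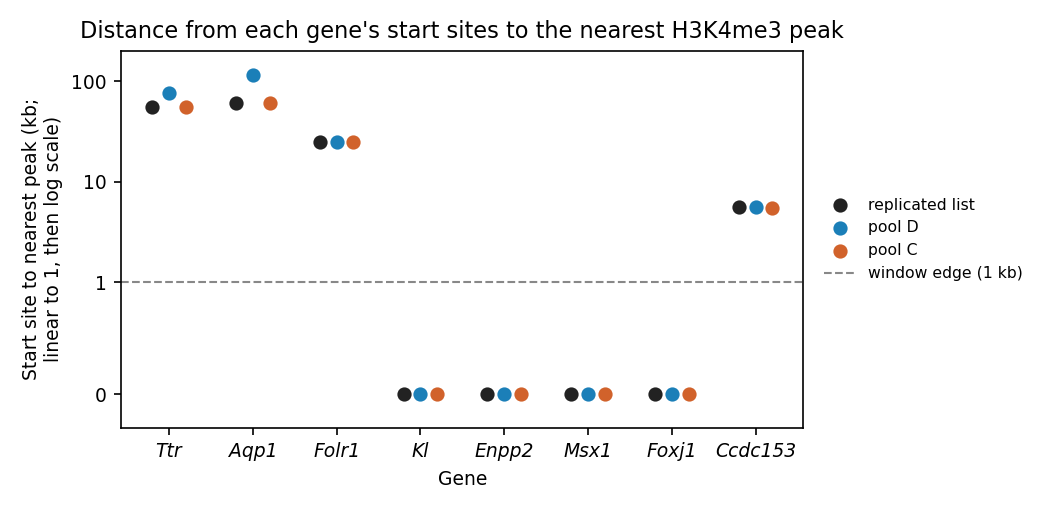
Distance in kb from the nearest start site of each gene to the nearest peak in the replicated list (black), pool D (blue) and pool C (orange), on an axis linear to 1 kb and logarithmic above. Kl, Enpp2, Msx1 and Foxj1 are at 0, Ccdc153 at 5.54 to 5.65 kb, Folr1 at 24.8 to 24.99 kb, Ttr at 55.2 to 76.0 kb and Aqp1 at 60.0 to 115 kb.

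The marked members were wider in pool C than in pool D, as were 96.8% of the 14098 genes marked in both pools. The ratio of breadth, pool C over pool D, was 1.32 for Kl, 1.27 for Enpp2, 1.27 for Msx1 and 1.14 for Foxj1. Over all those genes the median ratio was 1.18, with quartiles at 1.09 and 1.32, so Foxj1 lay below the median and Enpp2, Msx1 and Kl above it, with Kl at percentile 75.2. The Kl, Enpp2 and Foxj1 domains of pool D lay entirely inside those of pool C, and 99.2% of the Msx1 domain did. They filled 75.7% of the pool C domain at Kl, 78.3% at Msx1, 78.8% and 83.1% at the broader and narrower Enpp2 domains and 88.1% at Foxj1. The ends differed unequally at Msx1, by 17 bp on the upstream side and 590 bp inside the gene, and at the broader Enpp2 domain, by 26 bp and 769 bp. At Kl the larger difference was on the upstream side, 251 bp against 79 bp inside the gene. At Foxj1 the differences were 32 bp upstream and 149 bp inside the gene, and at the narrower Enpp2 domain 76 bp and 134 bp. Depth is unknown from these files and differences in depth between the pools were not tested.

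Beyond the members, other choroid plexus genes were marked about as often as genes in general, and narrowly. Of 30 such genes 19 (63.3%) were marked in the replicated list (D 17, C 18), with a median breadth of 1111 bp against 2234 bp over all marked genes. Slc12a2, the sodium, potassium and chloride cotransporter, had the broadest domain (5079 bp; D 4999, C 5682), and Car12, a carbonic anhydrase, the next (2726 bp; 2544 and 3692). No list had a promoter peak for 11 of them, which include Calml4 and Cldn2, the claudin of the plexus. Named after their values were seen, Kcnj13, Kcne2, Slc4a5 and F5 were also without one. Clic6 (651 bp), Sostdc1 (1079 bp) and Prlr (1775 bp), named in the same way, were marked in both pools. Slc13a4 had a peak of 253 bp in pool D and none in pool C, and Col9a3 and Igf2 the reverse, with 482 and 614 bp in pool C. These genes are nevertheless among the 19 of the replicated list, which does not require a peak in the list of each pool. Of the 19 domains 1 also held the start site of another coding gene.

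Other genes of ependyma and motile cilia were marked in 27 of 35 cases (77.1%) in the replicated list (D 26, C 28), against 65.5% of all genes there, 64.2% in pool D and 66.9% in pool C. Their median breadth of 1110 bp was close to that of the choroid plexus genes and to the 1393 bp of Foxj1. Rfx3, a factor that works with Foxj1 on ciliary genes, had the broadest domain (9042 bp; D 7901, C 11784), followed by Myb (3084 bp; 2965 and 3147). Dnah5, a dynein heavy chain of the ciliary axoneme, and Hdc had none in any list. Named after their values were seen, Mcidas (1100 bp), Gmnc (1172 bp) and Rfx2 (2259 bp) were all marked in both pools. Mcidas and Gmnc act above Foxj1 in multiciliated cells. Among ependymal markers, also named afterwards, Dynlrb2 (906 bp) and Rsph1 (1398 bp) were marked in both pools, and Tmem212 and Mia in neither. Of the 27 domains 4 also held a start site of another coding gene. By Euclidean distance in log2 breadth over the replicated, pool D and pool C lists, the nearest of the 42 genes of both lists marked in all 3 was Slc2a12 for Foxj1 (distance 0.02). It was Pltp for Msx1 (0.17), Gmnc for Kl (0.18) and Myb for Enpp2 (0.30). Breadth alone placed these genes together.

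Genes of the pathways that the members belong to were counted in the same way, against 65.5% of all genes in the replicated list, 64.2% in pool D and 66.9% in pool C. The lists differ in CpG content, with median counts from 21 (aquaporins) to 69.5 (Msx family and BMP signalling), and no difference between them was tested. Among genes of thyroxine and retinol transport, the setting of Ttr, 10 of 11 were marked in each list. The broadest were the thyroid hormone receptor gene Thra (11859 bp; D 5537, C 12024) and Slco1a4, a transporter of the blood vessels (6637 bp; 1069 and 6689). Of 11 other aquaporin genes 4 were marked in the replicated list and in pool C and 3 in pool D. Aqp11 had 3715 bp (3579 and 3766 in pools D and C) and the astrocyte channel Aqp4 3085 bp (1862 and 3182), while Aqp2 and Aqp12, like Aqp1, had none. In the folate list 6 of 8 were marked in each list, led by the carrier Slc19a1 (3261 bp; 1996 and 3079) and the mitochondrial carrier Slc25a32, whose domain of 2325 bp also held a start site of Dcaf13. The unmarked genes of that list were the receptor genes Folr2 and Izumo1r, relatives of Folr1.

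Of 11 genes listed for the klotho family and FGF23 signalling, 6 were marked in each list. One of the 6 was Klrg2, a lectin-like receptor gene that does not belong to the family, and without it, a choice made after seeing the data, the count was 5 of 10 in each list. The marked genes included the receptors Fgfr2 (7914 bp; 7226 and 8150 in pools D and C) and Fgfr3 (6807 bp; 5644 and 8108), and the hormone Fgf15 (2163 bp; 1064 and 2186), while the hormones Fgf21 and Fgf23 had no peak. Of 16 genes of the ENPP family and lysophosphatidic acid signalling, 14 were marked in the replicated list and in pool C and 13 in pool D. Plpp3, a phosphatase that breaks the lipid down, had 6128 bp (5624 and 8836) and Plppr4, a relative of neurons, 6079 bp (4604 and 6644), with Enpp7 and Lpar5 unmarked. Of 16 genes of the Msx family and BMP signalling, 15 were marked in the replicated list and in pool D and 16 in pool C. Id3 (5901 bp; 5350 and 6061) and the receptor Bmpr2 (5357 bp; 5036 and 5544) led, and Bmp5 had a peak of 243 bp in pool C alone.

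**Figure D5:**
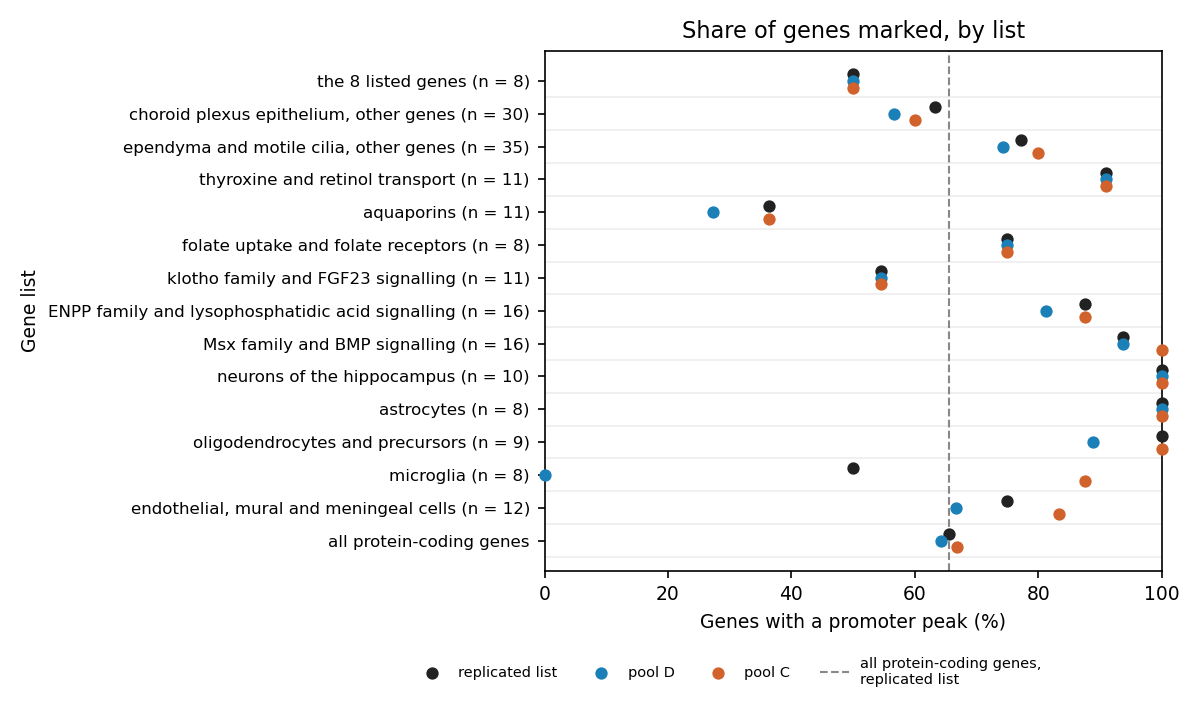
Percent of genes with a promoter peak in the replicated list (black), pool D (blue) and pool C (orange) for the 8 members, 13 other gene lists and all protein-coding genes, with the share of all genes in the replicated list as a dashed line at 65.5%. The 8 members sit at 50% in each, and the microglia list spreads from 0 of 8 genes in pool D to 7 of 8 in pool C.

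Markers of the main hippocampal cell types were counted in the same way. Over all protein-coding genes the share marked was 65.5% in the replicated list, 64.2% in pool D and 66.9% in pool C. All 10 neuronal genes and all 8 astrocyte genes were marked in both pools, with Prox1 (15493 bp) and Camk2a (13527 bp), and Slc1a3 (8050 bp) and Slc1a2 (8032 bp), the broadest. Of 9 oligodendrocyte lineage genes, pool C marked all and pool D 8, and the broadest in the replicated list were Olig2 (7238 bp; D 3520, C 8591) and Mbp (6097 bp; D 2425, C 7096). Of 8 microglia genes none was marked in pool D, 7 in pool C and 4 in the replicated list. P2ry12 (2133 bp in pool C) and Csf1r (2263 bp in pool C) were the broadest there, and Aif1 (369 bp) and C1qa (323 bp) had a peak in pool C only. Among 12 genes of vessels and meninges, pool D marked 8 (66.7%, near the share of all genes) and pool C 10 (83.3%). The broadest of them in the replicated list were Flt1 (5989 bp, with D 2451 and C 5724) and Cldn5 (4543 bp, with D 3189 and C 4646). Col3a1 and Lum were unmarked. By count, the oligodendrocyte, microglia and vessel lists were higher in pool C, and the neuronal and astrocyte lists did not change. Wider domains in pool C were general, at 96.8% of the genes marked in both pools. Any part of these cell types in the breadths of Kl, Enpp2, Msx1 and Foxj1 was not tested.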

How the data were processed

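H3K4me3 ChIP-seq was deposited as 4 peak lists on build mm10. Per the labels, both technical replicates of a pool went into 1 alignment and could not be compared, and a control alignment is also named. Which caller made the peaks is not given in the sources used here. The authors deposited a signal value in their caller's unit, read only within 1 list, and a −log10 q value for every peak. The lists held 27063 (replicated), 24690 (pool D), 34193 (pool C) and 31301 (both pools) peaks. Depth is unknown from the files.

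Start sites came from GENCODE M21 (GRCm38, the same build), with 93526 over 21951 protein-coding genes. A gene was marked if any of its start sites had a peak within 1 kb, by at least 1 bp. Peaks with gaps of at most 1 kb were joined into domains, and the broadest was taken. Values over pools are mean ± SD. Python 3.11.15 and pandas 2.3.3 were used, and the marking code was tested on simulated data. Of each other list the text names the 2 broadest replicated domains and, in order of symbol, the first 2 genes lacking a replicated peak. One gene that this rule names is not reported here. The members and lists were chosen with earlier results of these data known, and no significance test was made. Of 186 list entries, 1 (Aqp0) named no gene.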

Additional observations from a re-analysis of the deposited data

How the results depend on the processing

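The count of marked members was 4 under each of the 9 alternatives tried: a minimum −log10 q of 5, either pool list alone, the list on both pools together, windows of 500 bp and 2.5 kb, start sites of coding transcripts or the 5′ end alone, and the summit in place of any base of the peak. Breadth of the 4 marked members stayed within 1 SD over the pools under those settings and with gaps of 0 or 3 kb closed, with 2 exceptions. Kl measured 1029 bp in the pool D list alone. Enpp2 measured 1201 bp when start sites other than the 5′ end of the gene were dropped, which leaves its broader domain out. The SD was computed from the single-pool lists themselves, so it is no independent yardstick for them. Apart from those lists and the Enpp2 exception, every setting returned the identical breadth for these members. The count of members could hardly have changed under most settings. In the replicated list the marked members have −log10 q of at least 31.6, and their summits lie at most 456 bp from a start site. The unmarked members lie at least 5.54 kb from any peak. The list on both pools together holds the same member peaks as the replicated list. The median of all marked genes ranged from 2034 to 2400 bp. The single-pool lists stand in for leaving out a pool. No paired analysis was possible because the replicate numbers are those of technical replicates that share 1 list per pool, and no test was made. Weak marking of the unmarked members below the caller's threshold cannot be seen in peak lists.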

Other observations

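A few choroid plexus genes had no promoter peak in any list although their 5′ ends were rich in CpG, and were named after their values were seen. Otx2, which encodes the homeobox factor that maintains the plexus epithelium, has 60 CpG within 500 bp of its 5′ end, and 96.6% of the genes in its decile by CpG count were marked in the replicated list. Krt18, an epithelial keratin gene, has 46, and 94.3% of the genes in its decile were marked. Among the listed genes Aqp1 was the nearest to this pattern, with 28 CpG and 79.4%, though it lay near the lower edge of its decile. In contrast Gmnc, with 10 CpG, and Tekt4, a ciliary tektin gene with 3, were marked in both pools, with replicated domains of 1172 and 577 bp. The choroid plexus gene Sostdc1, with 11 CpG, was also marked in both pools, with a replicated domain of 1079 bp. CpG was counted at the 5′ end only, whereas a peak at any start site counted as a mark.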
